A study of Mus musculus with 5 samples.

Results

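Ms4a genes encode small membrane proteins with 4 transmembrane segments, and in the mouse most of them lie side by side on chromosome 19. The 10 family members described here are *Ms4a1*, *Ms4a3*, *Ms4a4a*, *Ms4a4b*, *Ms4a4c*, *Ms4a6b*, *Ms4a6c*, *Ms4a6d*, *Ms4a7* and *Ms4a8a*, which were chosen by gene symbol and have 1 row each among the 28693 features counted. They were followed in lung cells of *Ms4a3-CreER;R26-tdT* mice, in which a tamoxifen-activated Cre under the control of *Ms4a3* switches on the tdT reporter in cells that use this gene and in all their progeny. The lungs were profiled by droplet scRNA-seq (10X Genomics, 3′ kit) in 5 libraries, 1 of PBS-treated mice (sham) and 4 of mice taken 3, 7, 14 or 28 days after bleomycin, 1 for each time. Bleomycin injures the lung epithelium, and inflammation and fibrosis follow. All groups, the controls included, carried the same Cre and reporter alleles on a mixed C57BL6/129 background. The mice were adults from 7 weeks of age, and bleomycin was given into the trachea at 2 U/kg. How many mice each library holds is not given in the sources used here.

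*Ms4a1* encodes CD20, a surface protein of B cells and the target of therapeutic antibodies. *Ms4a3* is known from granulocyte-monocyte progenitors of the bone marrow and is switched off when these cells mature, so that a Cre driven by it marks monocytes, neutrophils and their descendants but not lung macrophages that were seeded before birth. *Ms4a4b* is known from T cells, where it modulates activation, and *Ms4a7* from macrophages. For several other members, including the *Ms4a6* genes, a role in the signalling of myeloid cells has been described but is less settled.

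The filters kept 44772 barcodes (at 300 to 8000 genes per barcode, 800 to 60000 UMIs and less than 15% of UMIs from mitochondrial genes), and 40950 cells remained after 3822 predicted doublets had been removed. The libraries held between 89769386 and 167506186 UMIs. The one of day 7 stands apart, because its lowest barcode has 4624 UMIs and those of the other libraries have 500 to 502. Pairs of libraries shared 22 to 41 barcodes. Cells were assigned to classes by marker genes that include no member of the family, which placed 32829 cells (80.17%) and left 8121 without a class. The labels call the samples immune cells, and 547 epithelial cells, 261 endothelial cells and 254 fibroblasts were nevertheless present. A level in CPM (counts per 1000000) is the sum of a gene's UMIs in all cells that 1 library has of a class, divided by all UMIs of the same cells. Levels are printed for classes with at least 20 cells in that library, apart from 1 value for basophils or mast cells. With 1 library per time point no test between time points is possible, and 95% intervals of levels, ratios and shares cover counting error only. Since UMIs are counted at the 3′ end, the same gene was compared between cells, and levels of different genes were not ranked against each other.

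Transcripts of *Ms4a3*, the gene that drives the Cre, were almost absent from these lungs. Before doublet removal there were 142 *Ms4a3* UMIs in 56 cells, and after it 91 UMIs in 41 of 40950 cells. Of these 41 cells, 35 had a single UMI. By library, the *Ms4a3* UMIs before doublet removal numbered 41 in the sham library, 7 on day 3, 68 on day 7, 23 on day 14 and 3 on day 28. The few cells with more UMIs decided these totals, since 5 barcodes with 5 or more *Ms4a3* UMIs held 77 of the 142.

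No *Ms4a3* UMI was found in 1390 classical monocytes, which allows a share of up to 0.216% of cells with a UMI, or in 594 nonclassical monocytes, which allows up to 0.505%. In neutrophils 2 of 3247 cells had a UMI of *Ms4a3*. Alveolar macrophages had 20 UMIs in 19 of 10172 cells. As a background, 2 of 1829 B cells and 1 of 703 NK cells were positive. The barcodes with 5 or more UMIs were of another kind. Of these, 4 passed the gate for granulocyte-monocyte progenitors, which uses *Mpo*, *Elane*, *Prtn3* and *Ctsg*, the genes of primary neutrophil granules. They had 9, 8, 30 and 16 *Ms4a3* UMIs, and 3 of them, all but the one with 30, were among the predicted doublets. The remaining one, a day 14 cell with 14 *Ms4a3* UMIs, passed the gate for basophils or mast cells with 432 UMIs of the basophil protease gene *Mcpt8*, and it had 22 UMIs of the proliferation gene *Mki67* and 23 of *Top2a*. Of the 34 *Ms4a3* UMIs in the 3 kept cells gated as progenitors, 30 were in 1 cell of day 7.

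The promoter of *Ms4a3* is shown because the fate mapping rests on when this gene is active. It covers 250 bases before and 50 bases after the transcription start (RefSeq, GRCm38.p6), in the sense of the gene, and capitals mark GGAAGT or its reverse complement, letters that hold the core bound by ETS factors such as PU.1, a regulator of myeloid cells.
Ms4a3 (chr19:11640802-11641101, minus strand): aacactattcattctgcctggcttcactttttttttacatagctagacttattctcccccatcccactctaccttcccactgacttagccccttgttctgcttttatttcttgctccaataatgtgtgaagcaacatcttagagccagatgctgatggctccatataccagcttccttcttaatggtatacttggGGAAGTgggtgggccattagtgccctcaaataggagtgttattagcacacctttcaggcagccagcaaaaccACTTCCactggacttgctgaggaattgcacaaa
GGAAGT begins at position -55, with position 1 as the first transcribed base, and on the other strand at 18. The letters TTGCNNAA, a core of C/EBP sites, begin at 42, and GAAA followed by any 2 bases and GAAA again, a core of interferon response elements, was not found on either strand.

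The reporter, unlike its driver, was widely detected. The feature list holds 1 added feature, RFP, which is taken as tdT, and it had UMIs in every class named here. Of the barcodes gated as progenitors, those with 9, 8, 30 and 16 *Ms4a3* UMIs had 2, 61, 0 and 2 RFP UMIs. The basophil or mast cell with 14 *Ms4a3* UMIs had 4. In neutrophils RFP stood at 2355 in the sham library, 2383 on day 3, 578 on day 7, 478 on day 14 and 229 on day 28, in CPM. In classical monocytes the values were 1259 in the sham library, 989 on day 3, 339 on day 7, 409 on day 14 and 656 on day 28. C1q macrophages had 236 in the sham library, 697 on day 3, 442 on day 7, 1466 on day 14 and 403 on day 28. Of these 3 classes, neutrophils were highest in the sham library and on days 3 and 7, C1q macrophages on day 14 and classical monocytes on day 28. T cells, which do not descend from these progenitors, had RFP at 59.5 to 258 CPM. Other classes outside this lineage were B cells, at 43.6 to 177 CPM, epithelial cells other than ciliated cells, at 136 to 272 CPM in 3 libraries, and endothelial cells, at 57.2 to 321 CPM. RFP was higher in classical monocytes than in alveolar macrophages by 2.11 ± 0.59 (SE; edgeR adjusted p = 0.0040) on the log2 scale. The test was edgeR's quasi-likelihood test on UMIs summed per class and library, with the library as a block and Benjamini-Hochberg adjustment over all genes tested. It treats the 5 libraries as replicates of a class, although they differ in time point. Each SE given with an edgeR value was worked back from this test. It is the absolute log2 fold change divided by the square root of the F statistic.

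**Figure D1:**
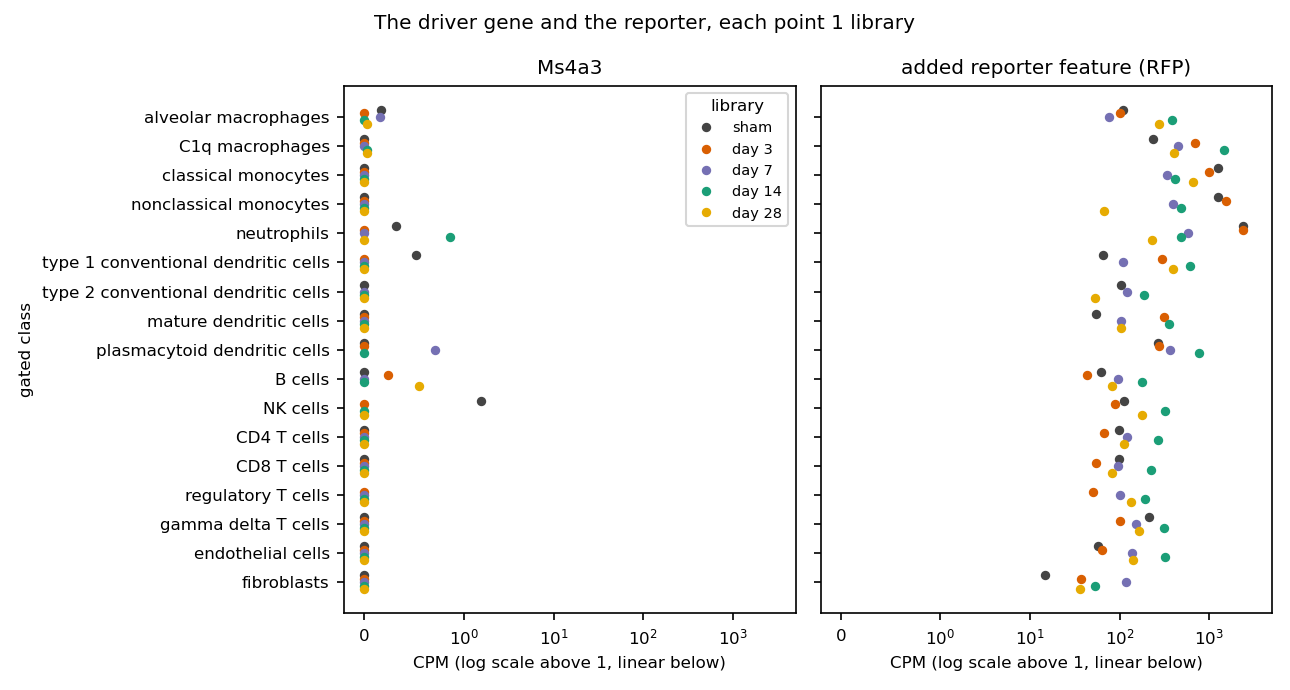
*Ms4a3* (left) and the added reporter feature RFP (right) in each class, in CPM on an axis that is logarithmic above 1 and linear below, with 1 point per library of at least 20 cells. *Ms4a3* lies at or near 0 in every class shown and nowhere above 1.57 CPM, whereas the RFP points of neutrophils, monocytes and C1q macrophages reach the highest values.

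The other members were not all highest in the same class. *Ms4a1* was found in B cells and *Ms4a4b* in T and NK cells. *Ms4a6b* was high in T cells and monocytes. *Ms4a4c*, *Ms4a6c* and *Ms4a6d* had their highest mean in classical monocytes, *Ms4a7* in C1q macrophages and *Ms4a8a* in alveolar macrophages. The class with the next mean overlapped for all of these but *Ms4a8a*. It was nonclassical monocytes for *Ms4a4c* and *Ms4a6c*, C1q macrophages for *Ms4a6d* and classical monocytes for *Ms4a7*. *Ms4a4a* reached no more than 13.5 CPM in any class with at least 20 cells.

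**Figure D2:**
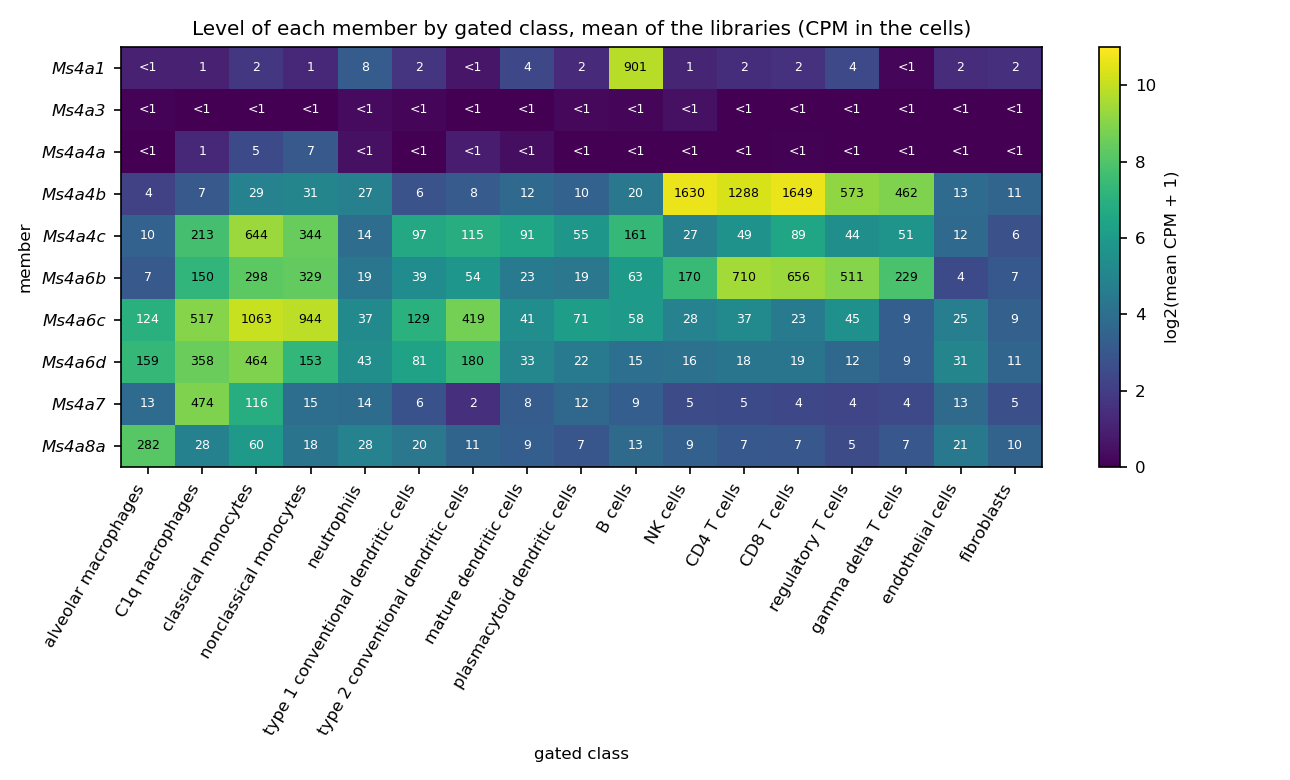
Mean level of each member (rows) in each gated class (columns) over the libraries with at least 20 cells, in CPM as printed in the cells and as log2(CPM + 1) by colour. Read along a row, *Ms4a1* is bright in B cells alone, *Ms4a4b* in T and NK cells, and *Ms4a8a* is highest in alveolar macrophages.

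*Ms4a1* was found almost wholly in B cells. In B cells it stood at 846 in the sham library, 971 on day 3, 757 on day 7, 1114 on day 14 and 816 on day 28, in CPM, with a mean of 901 ± 142 CPM (SD, n = 5 libraries). The next class, neutrophils, had 8.27 ± 16.1 CPM (SD, n = 5 libraries), and the 2 classes did not overlap. Within the neutrophils the values were 0.634 in the sham library, 2.36 on day 3, 37.0 on day 7, 0.429 on day 14 and 0.930 on day 28. Neutrophils of day 7 stand apart in other ways too, since there were only 124 of them with a median of 7933 UMIs, against 2154 to 3331 in the other libraries, and their B cell genes (*Cd79a*, *Cd79b*, *Ighm* and *Pax5*) summed to 232 CPM, against 70.8 to 195 in the others. The part of these in *Ms4a1* of neutrophils was not tested. When cells were reduced to 2000 UMIs, the share of B cells with an *Ms4a1* UMI was 72.4% in the sham library, 80.4% on day 3, 78.3% on day 7, 79.1% on day 14 and 67.6% on day 28. In T cells, which lack CD20, the same share was 0 to 0.733%. Without the reduction the shares were 72.9 to 96.2% of B cells and 0.239 to 1.73% of T cells. *Ms4a1* of B cells was 0.896 to 1.32 times the sham level in the bleomycin libraries.

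*Ms4a4b* marked T and NK cells. In CD8 T cells it stood at 1987 in the sham library, 2027 on day 3, 1344 on day 7, 1556 on day 14 and 1333 on day 28, in CPM. CD4 T cells had 1785 in the sham library, 1883 on day 3, 825 on day 7, 1076 on day 14 and 869 on day 28. In NK cells, too few on day 7, the level was 1875 in the sham library, 1985 on day 3, 1063 on day 14 and 1595 on day 28. These 3 classes overlapped, and the order of their means says nothing beyond their spread. The sham and day 3 values were the highest ones in both CD4 and CD8 T cells. In CD8 T cells *Ms4a4b* was 0.676-fold (95% interval 0.642 to 0.713) of sham on day 7 and 0.671-fold (95% interval 0.632 to 0.712) on day 28.

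Gamma delta T cells had the lowest mean level of *Ms4a4b* among the T cell subsets, although they overlapped with regulatory T cells. Their values were 482 in the sham library, 1188 on day 3, 413 on day 7, 129 on day 14 and 98.2 on day 28, in CPM. They were highest on day 3 and lowest on days 14 and 28, when the cells were most numerous, with 20, 37, 52, 300 and 413 cells in the order of the libraries. The share of gamma delta T cells with an *Ms4a4b* UMI, at 2000 UMIs per cell, was 40.0% in the sham library, 78.4% on day 3, 34.6% on day 7, 8.84% on day 14 and 4.75% on day 28. In CD8 T cells this share was 85.7 to 95.9%, and in B cells, taken as a background, 0.261 to 8.68%. With all UMIs the shares were 7.51 to 94.6% of gamma delta T cells, 94.9 to 99.7% of CD8 T cells and 0.840 to 23.5% of B cells. Because gamma delta T cells are part of all T cells, the lower *Ms4a4b* level of all T cells on day 28 (749 CPM, against 1709.7 in the sham library) includes their larger number. Regulatory T cells, of which the sham library had too few, stood at 1135 CPM on day 3, 155 on day 7, 576 on day 14 and 427 on day 28.

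*Ms4a6b* was shared by T cells and monocytes. In all T cells it stood at 678 in the sham library, 916 on day 3, 396 on day 7, 512 on day 14 and 377 on day 28, in CPM. Classical monocytes had 434 in the sham library, 652 on day 3, 206 on day 7, 177 on day 14 and 22.7 on day 28. Nonclassical monocytes, which patrol the vessel wall, had 181 in the sham library, 876 on day 3, 148 on day 7, 197 on day 14 and 243 on day 28. Day 3 was the highest library in all 3 classes, and the T cell values overlapped with those of both monocyte classes. NK cells had *Ms4a6b* at 116 to 278 CPM, below T cells in each of the 4 libraries with enough NK cells. B cells had 24.6 in the sham library, 90.6 on day 3, 67.2 on day 7, 70.5 on day 14 and 59.7 on day 28, so that each bleomycin library was above sham, by 2.42- to 3.68-fold.

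**Figure D3:**
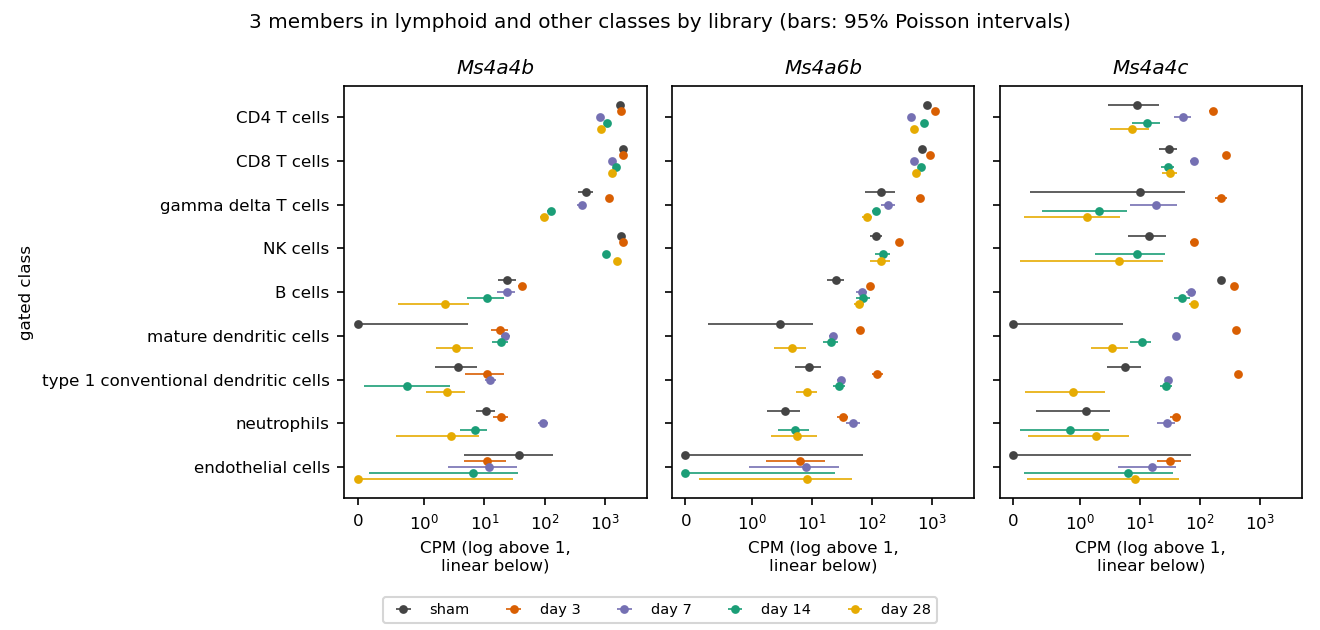
*Ms4a4b*, *Ms4a6b* and *Ms4a4c* in lymphoid and some other classes, in CPM on an axis that is logarithmic above 1 and linear below. Each point is 1 library with its 95% Poisson interval. In the panel of *Ms4a4c* the day 3 point lies to the right of the others in every class shown, from 31.8 CPM in endothelial cells to 423 in type 1 conventional dendritic cells.

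The genes *Ms4a4b* and *Ms4a4c* are neighbours with like promoters. Their highest means were in different classes, CD8 T cells and classical monocytes, but CD8 T cells also had *Ms4a4c*, at 29.0 to 276 CPM. *Ms4a6b* and *Ms4a6c* form a second pair with like promoters. Their highest means were in CD4 T cells and classical monocytes, but classical monocytes had both genes. The promoters of both pairs are printed for comparison.
Ms4a4b (chr19:11443308-11443607, plus strand): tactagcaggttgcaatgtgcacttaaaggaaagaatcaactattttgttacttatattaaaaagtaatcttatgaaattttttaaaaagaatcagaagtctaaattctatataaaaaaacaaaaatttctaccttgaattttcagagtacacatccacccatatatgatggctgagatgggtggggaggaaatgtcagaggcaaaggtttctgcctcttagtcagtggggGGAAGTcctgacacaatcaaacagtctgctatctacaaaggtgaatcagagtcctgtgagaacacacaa
Ms4a4c (chr19:11407411-11407710, plus strand): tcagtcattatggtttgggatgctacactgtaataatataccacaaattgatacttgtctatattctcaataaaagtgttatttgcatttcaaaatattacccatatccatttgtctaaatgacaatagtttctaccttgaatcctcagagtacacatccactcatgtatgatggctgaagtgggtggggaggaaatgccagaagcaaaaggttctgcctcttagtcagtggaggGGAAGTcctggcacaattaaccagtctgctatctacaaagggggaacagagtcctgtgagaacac
Ms4a6b (chr19:11518309-11518608, plus strand): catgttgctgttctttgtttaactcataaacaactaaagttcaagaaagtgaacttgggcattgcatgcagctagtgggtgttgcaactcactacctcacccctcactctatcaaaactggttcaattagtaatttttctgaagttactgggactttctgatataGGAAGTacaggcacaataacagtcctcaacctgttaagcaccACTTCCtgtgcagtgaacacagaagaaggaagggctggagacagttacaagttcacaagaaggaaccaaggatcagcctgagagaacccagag
Ms4a6c (chr19:11469118-11469417, plus strand): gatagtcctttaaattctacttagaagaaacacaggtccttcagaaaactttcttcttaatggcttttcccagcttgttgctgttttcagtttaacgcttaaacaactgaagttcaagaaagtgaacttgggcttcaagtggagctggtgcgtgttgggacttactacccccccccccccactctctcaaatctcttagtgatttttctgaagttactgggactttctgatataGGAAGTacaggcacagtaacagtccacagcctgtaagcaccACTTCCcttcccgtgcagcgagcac
Capitals mark GGAAGT or its reverse complement, as above. In a local alignment *Ms4a4b* and *Ms4a4c* shared 162 of 183 columns (88.52%), with a longest common run of 20 bases, and *Ms4a6b* and *Ms4a6c* shared 182 of 222 columns (81.98%), with a run of 48 bases, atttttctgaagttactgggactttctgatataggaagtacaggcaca. No other pair reached an alignment score above 14, against 139 and 136 for these 2. GGAAGT lies at -19 in *Ms4a4b* and at -15 in *Ms4a4c*, just before the start. In *Ms4a6c* it lies at -16 and, on the other strand, at 26, and in *Ms4a6b* at -85 and, on the other strand, at -43. In *Ms4a7* it lies at -15 on the other strand. Of the 9 promoter entries of 8 members (*Ms4a1* and *Ms4a6d* have none in this table), 6 hold GGAAGT on either strand, as do 23.77% of all 32851 promoters of this length. None of the 9 holds the interferon response core (3.443% of all) and 1 holds TTGCNNAA (10.8% of all). A match of letters is a description and not a binding site.

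All 10 members lie on chromosome 19, between 11067471 and 11640851 (GRCm38, GENCODE vM21), a span of 573.381 kb with 5 genes on each strand. From *Ms4a4a* to *Ms4a6b* 5 members follow each other on the plus strand. *Ms4a6d* and *Ms4a3*, at the distal end, and *Ms4a8a*, *Ms4a1* and *Ms4a7*, at the proximal end, are on the minus strand. Some neighbours differed in the class where they were highest, with *Ms4a5* and *Ms4a14* alone between the B cell gene *Ms4a1* and the macrophage gene *Ms4a7*. Related copies can share reads, so the last 500 bases of each transcript were compared in windows of 50 bases. Of these windows, 11.12% of *Ms4a4c* were also found in *Ms4a4b* or *Ms4a4d*, 6.098% of *Ms4a6c* in *Ms4a6b*, 3.947% of *Ms4a6b* in *Ms4a6c* or *Ms4a6d*, and 3.527% of *Ms4a4b* in *Ms4a4c*. These shares count windows and not reads, so the size of any error in the values of these 4 genes was not measured. No window from the ends of the other 6 members was found in another gene of the family.

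*Ms4a6c* was highest in both kinds of monocytes. In classical monocytes, the blood monocytes that enter injured tissue, it stood at 1591 in the sham library, 1841 on day 3, 864 on day 7, 843 on day 14 and 175 on day 28, in CPM. Nonclassical monocytes had 825 in the sham library, 1758 on day 3, 597 on day 7, 766 on day 14 and 771 on day 28. In C1q macrophages, which carry the genes of complement C1q and are typical of the lung interstitium, the values were 339.8 in the sham library, 1362 on day 3, 444 on day 7, 252 on day 14 and 190.4 on day 28. These classes overlapped. The day 28 value of classical monocytes rests on 20 cells and that of day 14 on 36. Type 2 conventional dendritic cells, which present antigen to CD4 T cells, had 476 in the sham library, 369.9 on day 7, 435 on day 14 and 395 on day 28, with too few cells on day 3.

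*Ms4a6d* was found in classical monocytes and macrophages. In classical monocytes it stood at 196 in the sham library, 1213 on day 3, 509.9 on day 7, 182 on day 14 and 218 on day 28, in CPM. C1q macrophages had 198 in the sham library, 726 on day 3, 350.1 on day 7, 259 on day 14 and 256 on day 28. Alveolar macrophages, the resident cells of the airspace, had 85.6 in the sham library, 296 on day 3, 155 on day 7, 139 on day 14 and 118 on day 28. Day 3 was the highest library in all 3. C1q macrophages were above classical monocytes in 3 of the 5 libraries, so that the higher mean of the monocytes rests on days 3 and 7. In C1q and alveolar macrophages each of the 4 bleomycin libraries was above sham by more than the counting interval. Neutrophils had *Ms4a6d* at 8.55 in the sham library, 29.1 on day 3, 123 on day 7, 20.6 on day 14 and 31.6 on day 28, lower than classical monocytes in 5 of 5 libraries.

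*Ms4a4c* reached its highest level in classical monocytes of day 3. The values there were 661 in the sham library, 1945 on day 3, 391 on day 7, 205 on day 14 and 19.5 on day 28, in CPM. Nonclassical monocytes had 141 in the sham library, 1248 on day 3, 89.7 on day 7, 116 on day 14 and 126 on day 28. C1q macrophages had 22.5 in the sham library, 968 on day 3, 50.8 on day 7, 16.5 on day 14 and 6.03 on day 28. In these 3 classes day 3 was above every other library. At 2000 UMIs per cell, the share of classical monocytes with an *Ms4a4c* UMI was 63.2% in the sham library, 89.8% on day 3, 47.7% on day 7, 42.9% on day 14 and 10.0% on day 28. With all UMIs the shares of classical monocytes were 10.0 to 98.2%. Among C1q macrophages the share at the reduced depth was 2.00% in the sham library, 69.9% on day 3, 8.15% on day 7, 2.25% on day 14 and 0.808% on day 28.

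*Ms4a4a* was the rarest member apart from *Ms4a3*. It had 398 UMIs in 376 cells before doublet removal, so that nearly all positive cells had 1 UMI. Nonclassical monocytes had 6.09 in the sham library, 9.30 on day 3, 13.5 on day 7, 8.02 on day 14 and 0 on day 28, in CPM. Classical monocytes had 6.57 in the sham library, 4.04 on day 3, 10.2 on day 7, 2.27 on day 14 and 0 on day 28. These values overlapped, and both classes were at 0 on day 28, when they had 23 and 20 cells. C1q macrophages had 0 to 2.86 CPM, and alveolar macrophages had 1 UMI in 10172 cells. No UMI of *Ms4a4a* was found in 1829 B cells or 905 type 1 conventional dendritic cells.

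*Ms4a7* separated C1q macrophages from alveolar macrophages. In C1q macrophages it stood at 286 in the sham library, 1076 on day 3, 341 on day 7, 323 on day 14 and 345 on day 28, in CPM, and in alveolar macrophages at 9.41 in the sham library, 19.4 on day 3, 13.6 on day 7, 13.2 on day 14 and 11.8 on day 28. The 2 classes did not overlap. Classical monocytes lay between them in every library, with 12.2 in the sham library, 403 on day 3, 85.1 on day 7, 38.6 on day 14 and 39.0 on day 28. Their sham value was close to that of alveolar macrophages, and their day 3 value lay within the range of C1q macrophages. In nonclassical monocytes *Ms4a7* stayed at 4.49 to 25.2 CPM. At 2000 UMIs per cell, the share of C1q macrophages with an *Ms4a7* UMI was 34.0% in the sham library, 70.1% on day 3, 39.3% on day 7, 34.3% on day 14 and 36.5% on day 28. In T cells, taken as a background, it was 0 to 2.15%. With all UMIs these shares were 51.9 to 86.3% and 0 to 4.93%.

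*Ms4a8a* was highest in alveolar macrophages. It stood at 262 in the sham library, 299.8 on day 3, 262 on day 7, 215 on day 14 and 370.2 on day 28, in CPM, with a mean of 282 ± 57.8 CPM (SD, n = 5 libraries). Classical monocytes, the next class, had 97.6 in the sham library, 42.0 on day 3, 31.6 on day 7, 72.7 on day 14 and 58.5 on day 28, and no library of theirs reached the lowest value of alveolar macrophages. C1q macrophages had 46.3 in the sham library, 41.7 on day 3, 13.5 on day 7, 13.6 on day 14 and 22.4 on day 28. The share of alveolar macrophages with an *Ms4a8a* UMI, at 2000 UMIs per cell, was 39.2% in the sham library, 41.9% on day 3, 40.1% on day 7, 33.1% on day 14 and 51.6% on day 28. In T cells it was 0.733 to 2.51% and in C1q macrophages 2.33 to 8.0%. With all UMIs these shares were 90.9 to 94.1% of alveolar macrophages, 2.36 to 7.57% of T cells and 14.1 to 24.1% of C1q macrophages.

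The classes were then compared across libraries with the edgeR test described above, on 72 sums of 17 classes and 15082 genes. *Ms4a3* fell below the filter on low counts, and 9 members were tested. A call is an adjusted p under 0.05. Comparisons that name the same class share its sums, and are not independent of each other. Between classical monocytes and alveolar macrophages 8 of the 9 members were called, 7 higher and 1 lower in monocytes, where 12.7% of all genes tested were higher and 18.8% lower. The median log2 fold change was 3.27 for the 9 members and -0.13 for all genes. *Ms4a4c* was higher in classical monocytes by 7.57 ± 0.67 (SE; edgeR adjusted p = 4.6e-14) on the log2 scale. *Ms4a6b* was higher by 5.82 ± 0.54 (SE; edgeR adjusted p = 2.6e-13). *Ms4a4b* followed at 3.47 ± 0.54 (SE; edgeR adjusted p = 5.5e-07) and *Ms4a6c* at 3.27 ± 0.54 (SE; edgeR adjusted p = 1.8e-06). These 4 members were higher in monocytes in 5 of 5 libraries. *Ms4a7* was higher by 2.73 ± 0.40 (SE; edgeR adjusted p = 1.5e-07) and *Ms4a6d* by 1.36 ± 0.36 (SE; edgeR adjusted p = 0.0020), each also in 5 of 5. *Ms4a8a* was lower in 5 of 5, at -2.32 ± 0.40 (SE; edgeR adjusted p = 3.9e-06). *Ms4a4a* was called higher as well (edgeR adjusted p = 5.3e-11), but with 1 UMI in alveolar macrophages its fitted fold change is not given. *Ms4a1* was at 1.14 ± 0.61 (SE; edgeR adjusted p = 0.16) and was not called, but without the day 3 library it was, at 2.20 ± 0.72 (SE; edgeR adjusted p = 0.021).

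C1q macrophages differed from alveolar macrophages in the same 8 members, again with 7 higher and 1 lower, where 15.8% of all genes tested were higher and 15.2% lower. The median was 1.99 for the members and 0.01 for all genes. *Ms4a7* was higher by 5.02 ± 0.42 (SE; edgeR adjusted p = 3.5e-15) on the log2 scale. *Ms4a6b* was higher by 4.53 ± 0.51 (SE; edgeR adjusted p = 7.4e-11) and *Ms4a4c* by 4.49 ± 0.58 (SE; edgeR adjusted p = 4.9e-09). *Ms4a6c* was higher by 1.99 ± 0.51 (SE; edgeR adjusted p = 0.0014) and *Ms4a6d* by 1.23 ± 0.35 (SE; edgeR adjusted p = 0.0046). *Ms4a8a* was lower, at -3.36 ± 0.40 (SE; edgeR adjusted p = 4.1e-10). All of these held in 5 of 5 libraries. The call of *Ms4a4b*, at 1.32 ± 0.49 (SE; edgeR adjusted p = 0.034), was lost when the sham, day 3, day 14 or day 28 library was left out, and also in 5 other alternatives, namely DESeq2, the stricter gate, doublets kept, scaling by total UMIs and the fit without the library block, with adjusted p-values of 0.052 to 0.28 over all 9. Without the block *Ms4a6d* was not called either (edgeR adjusted p = 0.088), and *Ms4a4a* was called (edgeR adjusted p = 1.5e-09) over the same single UMI.

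Between C1q macrophages and classical monocytes 3 members were called, 1 higher and 2 lower in C1q macrophages, where 3.34% of all genes tested were higher and 2.43% lower. The median was -1.28 for the members and 0.13 for all genes. *Ms4a7* was higher in C1q macrophages by 2.29 ± 0.39 (SE; edgeR adjusted p = 3.7e-05) on the log2 scale, in 5 of 5 libraries. *Ms4a4c* was lower, at -3.08 ± 0.55 (SE; edgeR adjusted p = 0.00011) and *Ms4a4b* at -2.16 ± 0.54 (SE; edgeR adjusted p = 0.0073), also in 5 of 5, but the call of *Ms4a4b* was lost without the sham library (edgeR adjusted p = 0.075). Without the day 3 library *Ms4a8a* was called lower as well (edgeR adjusted p = 0.016). A stricter gate called 7 members, a common UMI minimum at that of day 7 called 5, and the fit without the library block called 1. Over all genes these alternatives called 1683, 1077 and 429, against 870 in the main fit.

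Nonclassical monocytes differed from classical monocytes in 3 members, all lower, where 6.18% of all genes tested were higher and 8.29% lower. The median was -0.36 for the members (-0.84 without *Ms4a4a*) and -0.15 for all genes. *Ms4a7* was lower in nonclassical monocytes, at -3.21 ± 0.56 (SE; edgeR adjusted p = 1.9e-05) on the log2 scale and *Ms4a6d* at -1.68 ± 0.38 (SE; edgeR adjusted p = 0.00093). *Ms4a8a* was at -1.81 ± 0.51 (SE; edgeR adjusted p = 0.0094), a call that was lost without the sham library (edgeR adjusted p = 0.071) or the day 14 library (0.067). All 3 were lower in 5 of 5 libraries, but *Ms4a6d* was not called without the library block (edgeR adjusted p = 0.052). *Ms4a4c* was at -1.33 ± 0.57 (SE; edgeR adjusted p = 0.11), lower in 4 of 5 libraries, and was not called.

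Neutrophils, which share the labelled progenitor with monocytes, had fewer transcripts of most members. Against classical monocytes 6 of 9 members were lower and 1 higher, where 21.8% of all genes tested were higher and 20.7% lower. The median was -2.98 for the members and 0.04 for all genes. *Ms4a4c* was lower in neutrophils, at -5.47 ± 0.68 (SE; edgeR adjusted p = 1.5e-09) on the log2 scale and *Ms4a6c* at -4.81 ± 0.59 (SE; edgeR adjusted p = 1.0e-09). *Ms4a6b* was lower, at -3.71 ± 0.53 (SE; edgeR adjusted p = 5.0e-08), *Ms4a6d* at -2.98 ± 0.39 (SE; edgeR adjusted p = 6.4e-09) and *Ms4a7* at -2.53 ± 0.44 (SE; edgeR adjusted p = 3.3e-06). These 5 were lower in 5 of 5 libraries. *Ms4a4a* was called lower (edgeR adjusted p = 0.00083) with 3 UMIs in neutrophils, but not by DESeq2 (adjusted p = 0.14). *Ms4a1* was called higher, at 1.75 ± 0.64 (SE; edgeR adjusted p = 0.022), with 1 to 45 UMIs in a library, and this call was lost without the day 3 or the day 7 library, by DESeq2, with the stricter gate, with scaling by total UMIs and without the library block (adjusted p = 0.092 to 0.18). When libraries were scaled by total UMIs alone, the split was 0 higher and 7 lower, with 7203 calls over all genes against 6404 in the main fit. *Ms4a8a* missed the threshold with all libraries but was called lower without the day 7 library, at -1.67 ± 0.41 (SE; edgeR adjusted p = 0.00079). C1q macrophage genes summed to 23.8 to 449.9 CPM in neutrophils and were highest on day 7, and their part in these values was not tested.

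**Figure D4:**
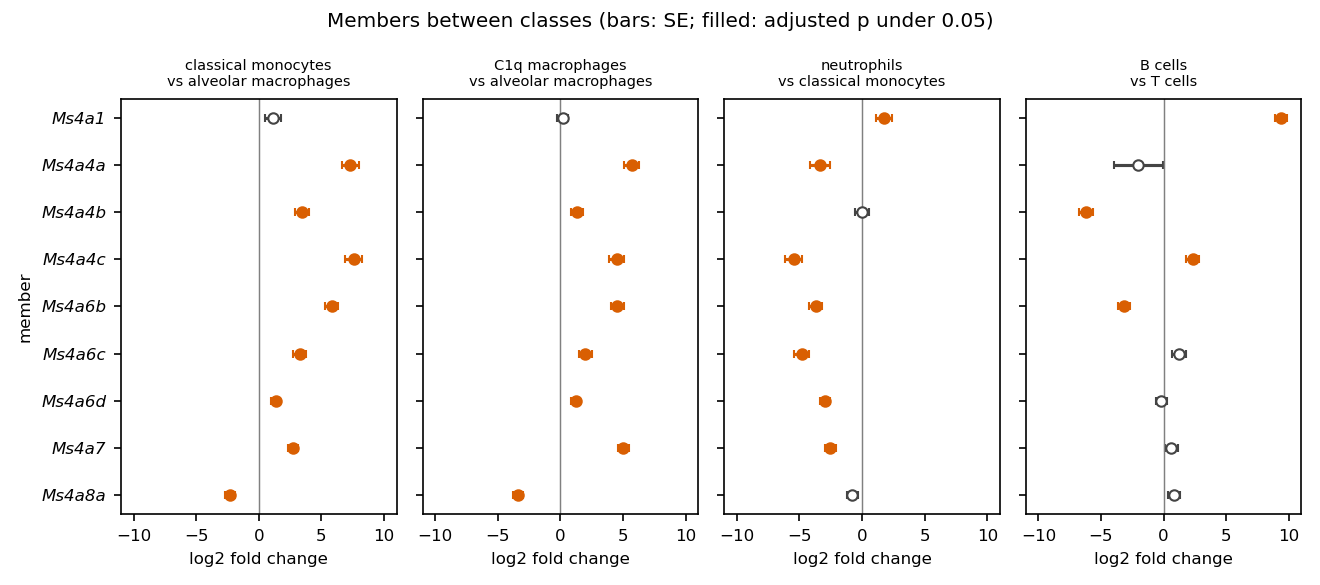
Log2 fold changes of the 9 members tested in 4 comparisons of classes, positive where the first class is higher. Points are the edgeR estimates with their SE, worked back from the F statistic, as bars, and filled points passed an adjusted p of 0.05. Against alveolar macrophages, 7 members are higher and *Ms4a8a* lower in both classical monocytes and C1q macrophages.

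Among dendritic cells 3 members were higher in type 2 than in type 1 cells and 0 lower, where 3.14% of all genes tested were higher and 4.28% lower. The median was 1.32 for the members (1.04 without *Ms4a4a*, which had no UMI in type 1 cells) and -0.02 for all genes. This comparison has the 4 libraries other than day 3 for type 2 cells. *Ms4a4c* was higher in type 2 cells by 2.79 ± 0.59 (SE; edgeR adjusted p = 0.00066) on the log2 scale, *Ms4a6c* by 2.17 ± 0.54 (SE; edgeR adjusted p = 0.0044) and *Ms4a6d* by 1.43 ± 0.39 (SE; edgeR adjusted p = 0.010), each in 4 of 4 libraries. Without day 14 the calls of *Ms4a6c* and *Ms4a6d* were lost (edgeR adjusted p = 0.062 and 0.064), as was that of *Ms4a6d* without sham (0.070), and none of the 3 was called without the library block. A fit on these 2 classes alone called 5 members, with 1219 calls over all genes against 1119 in the main fit.

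B cells and T cells differed in 4 members, 2 higher and 2 lower in B cells, where 8.32% of all genes tested were higher and 11.6% lower. The median was 0.61 for the members (0.72 without *Ms4a4a*, which had no UMI in B cells) and -0.07 for all genes. *Ms4a1* was higher in B cells by 9.37 ± 0.51 (SE; edgeR adjusted p = 2.3e-23) on the log2 scale. *Ms4a4b* was lower, at -6.22 ± 0.57 (SE; edgeR adjusted p = 8.1e-14) and *Ms4a6b* at -3.16 ± 0.49 (SE; edgeR adjusted p = 4.1e-07). *Ms4a4c* was higher by 2.31 ± 0.55 (SE; edgeR adjusted p = 0.00087). All 4 held in 5 of 5 libraries, but *Ms4a4c* was not called without the library block (edgeR adjusted p = 0.61). Without the sham library *Ms4a6c* was called higher in B cells as well (edgeR adjusted p = 0.032). Against T cells, NK cells were lower in *Ms4a6b* alone, at -2.11 ± 0.52 (SE; edgeR adjusted p = 0.0031), where 4.47% of all genes tested were higher and 5.88% lower, with medians of -0.53 for the members (-0.35 without *Ms4a4a*) and -0.17 for all genes. *Ms4a4b*, at 0.41 ± 0.47 (SE; edgeR adjusted p = 0.75), was not called, although NK cells were higher in 4 of 4 libraries. Without the library block the call of *Ms4a6b* was lost (edgeR adjusted p = 0.17), and a fit on the 2 classes alone called 2 members. Over all genes the fit on the 2 classes called 2264, against 1561 in the main fit.

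CD8 and CD4 T cells were compared in a second edgeR fit over 93 sums of 22 classes and 14861 genes. Called members numbered 0, where 0.774% of all genes tested were higher and 0.841% lower in CD8 T cells. At an unadjusted p under 0.05 there was 1, and DESeq2 called 0. A fit on the 2 classes alone called 3 of 5 members tested, with 698 calls over all genes against 240 in the main fit. *Ms4a4b* was higher in CD8 T cells in 5 of 5 libraries, at 0.53 ± 0.47 (SE; edgeR adjusted p = 0.86) in this fit and an adjusted p of 0.0040 in the fit on the 2 classes. The medians were 0.10 for the members and 0.05 for all genes.

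For the levels after injury, each bleomycin library was set beside sham in 3 classes. A pair of a gene and a day was counted where the gene had at least 10 CPM in either library, and a ratio past 2-fold is a rule of size, not a test. In alveolar macrophages 9 of 19 member-day pairs were past 2-fold, all higher than sham, where 3.29% of all gene-day pairs were higher and 3.26% lower. Of the 7 members counted on day 3, *Ms4a4b*, *Ms4a4c*, *Ms4a6b* and *Ms4a7* had under 10 CPM in sham and were counted through day 3 alone, so that a ratio above 1 was set by the rule. Among pairs with at least 10 CPM in both libraries 5 of 12 were past 2-fold, 5 higher and 0 lower, where 1.92% of all such gene-day pairs were higher and 1.8% lower. Without day 3, and with at least 10 CPM in either library, 3 of 12 pairs were past 2-fold, all of them *Ms4a6c*. Over all genes counted, 175 of 7910 were higher and 137 lower on day 7. On day 14 these numbers were 269 and 278 of 7965, and on day 28 they were 272 and 289 of 7997.

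*Ms4a6c* was the one member past 2-fold in alveolar macrophages in every bleomycin library. It stood at 14.5 in the sham library, 254 on day 3, 112 on day 7, 137 on day 14 and 101 on day 28, in CPM. All 4 bleomycin libraries were above sham, by 17.5-fold (95% interval 16.4 to 18.8) on day 3, 7.68-fold (95% interval 7.19 to 8.22) on day 7, 9.44-fold (95% interval 8.87 to 10.1) on day 14 and 6.94-fold (95% interval 6.52 to 7.39) on day 28. At 2000 UMIs per cell the share of alveolar macrophages with an *Ms4a6c* UMI was 2.76% in the sham library, 27.5% on day 3, 18.6% on day 7, 21.3% on day 14 and 19.4% on day 28, and with all UMIs 17.9 to 83.3%. In T cells the share was 2.73 to 6.70% at 2000 UMIs and 6.39 to 17.8% with all UMIs. C1q macrophage genes (*C1qa*, *C1qb*, *C1qc* and *Pf4*, all 4 detected) summed to 7.49 CPM in sham alveolar macrophages and to 59.1, 76.0, 131 and 72.3 CPM on days 3, 7, 14 and 28, against 8958 to 12532 CPM in C1q macrophages. Their part in the level of *Ms4a6c* was not tested.

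The other members that passed 2-fold in alveolar macrophages did so on day 3 alone. *Ms4a4c* was at 0.385 CPM in the sham library and 45.3 on day 3, and *Ms4a6b* at 0.792 and 25.3. *Ms4a6d* was 3.46-fold (95% interval 3.31 to 3.62) of sham and *Ms4a7* 2.07-fold (95% interval 1.74 to 2.44). *Ms4a4b* was at 1.15 and 10.1 CPM, beside T cell genes (*Cd3d*, *Cd3e*, *Cd3g*, *Trac* and *Trbc2*) that summed to 3.94 CPM in sham and 24.3 on day 3 in the same cells. Their part in this difference was not tested. *Ms4a8a*, by contrast, was 1.15-fold (95% interval 1.10 to 1.19) of sham on day 3, 0.823-fold (95% interval 0.801 to 0.846) on day 14 and 1.41-fold (95% interval 1.39 to 1.44) on day 28.

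In C1q macrophages 13 of 25 member-day pairs were past 2-fold, 7 higher and 6 lower, where 5.92% of all gene-day pairs were higher and 11.6% lower. Among pairs with at least 10 CPM in both libraries 11 of 23 were past 2-fold, 6 higher and 5 lower, where 3.4% of all such gene-day pairs were higher and 6.63% lower. The sham library has 54 C1q macrophages. On day 3 *Ms4a4b*, *Ms4a4c*, *Ms4a6b*, *Ms4a6c*, *Ms4a6d* and *Ms4a7* were all higher, with *Ms4a4c* at 43.1-fold (95% interval 26.5 to 75.4) of sham, *Ms4a7* at 3.76-fold (95% interval 3.27 to 4.34) and *Ms4a6d* at 3.67-fold (95% interval 3.10 to 4.36). Of these, *Ms4a4b* had 1.40 CPM in sham and 24.0 on day 3. It was counted through day 3 alone, so that a ratio above 1 was set by the rule. *Ms4a6b* was 2.50-fold (95% interval 2.09 to 3.02) of sham on day 3 but 0.173-fold (95% interval 0.144 to 0.211) on day 14 and 0.163-fold (95% interval 0.135 to 0.198) on day 28. *Ms4a8a* was 0.291-fold (95% interval 0.204 to 0.428) of sham on day 7, with values of 46.3 in the sham library, 41.7 on day 3, 13.5 on day 7, 13.6 on day 14 and 22.4 on day 28, in CPM. Alveolar macrophage genes (*Car4*, *Krt79*, *Marco*, *Fabp1* and *Ear1*) summed in C1q macrophages to 195 CPM in sham and to 52.4, 22.5, 21.3 and 23.8 on the 4 days, and their part in the level of *Ms4a8a* was not tested. Without day 3, 7 of 18 pairs remained past 2-fold, with 1 higher. Over all genes counted, 338 of 7992 were higher and 715 lower on day 7. On day 14 these numbers were 349 and 881 of 7919, and on day 28 they were 453 and 1181 of 7965.

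In classical monocytes 18 of 30 member-day pairs were past 2-fold, 8 higher and 10 lower, where 15.3% of all gene-day pairs were higher and 10.2% lower. Among pairs with at least 10 CPM in both libraries 15 of 26 were past 2-fold, 7 higher and 8 lower, where 9.28% of all such gene-day pairs were higher and 6.72% lower. This class had 112 cells in the sham library, 1027 on day 3 and 195, 36 and 20 on days 7, 14 and 28. *Ms4a7* was higher in all 4 bleomycin libraries, by 33.1-fold (95% interval 19.3 to 62.1) on day 3, 6.97-fold (95% interval 3.97 to 13.4) on day 7, 3.17-fold (95% interval 1.45 to 7.09) on day 14 and 3.2-fold (95% interval 1.33 to 7.60) on day 28. C1q macrophage genes summed to 30.0 CPM in sham monocytes and to 227, 301, 225 and 620.5 on the 4 days, and their part was not tested. *Ms4a6d* was 6.18-fold (95% interval 5.4 to 7.12) of sham on day 3 and 2.60-fold (95% interval 2.24 to 3.03) on day 7. *Ms4a4c* was 2.95-fold (95% interval 2.73 to 3.18) of sham on day 3 and 0.310-fold (95% interval 0.246 to 0.386) on day 14. *Ms4a8a* was 0.431-fold (95% interval 0.349 to 0.536) of sham on day 3 and 0.324-fold (95% interval 0.232 to 0.447) on day 7. On day 28, with 20 cells, *Ms4a4b*, *Ms4a4c*, *Ms4a6b* and *Ms4a6c* were all more than 2-fold below sham. Of these, *Ms4a4b* had 41.3 CPM in sham and 6.50 on day 28. It was counted through sham alone, so that a ratio below 1 was set by the rule.

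**Figure D5:**
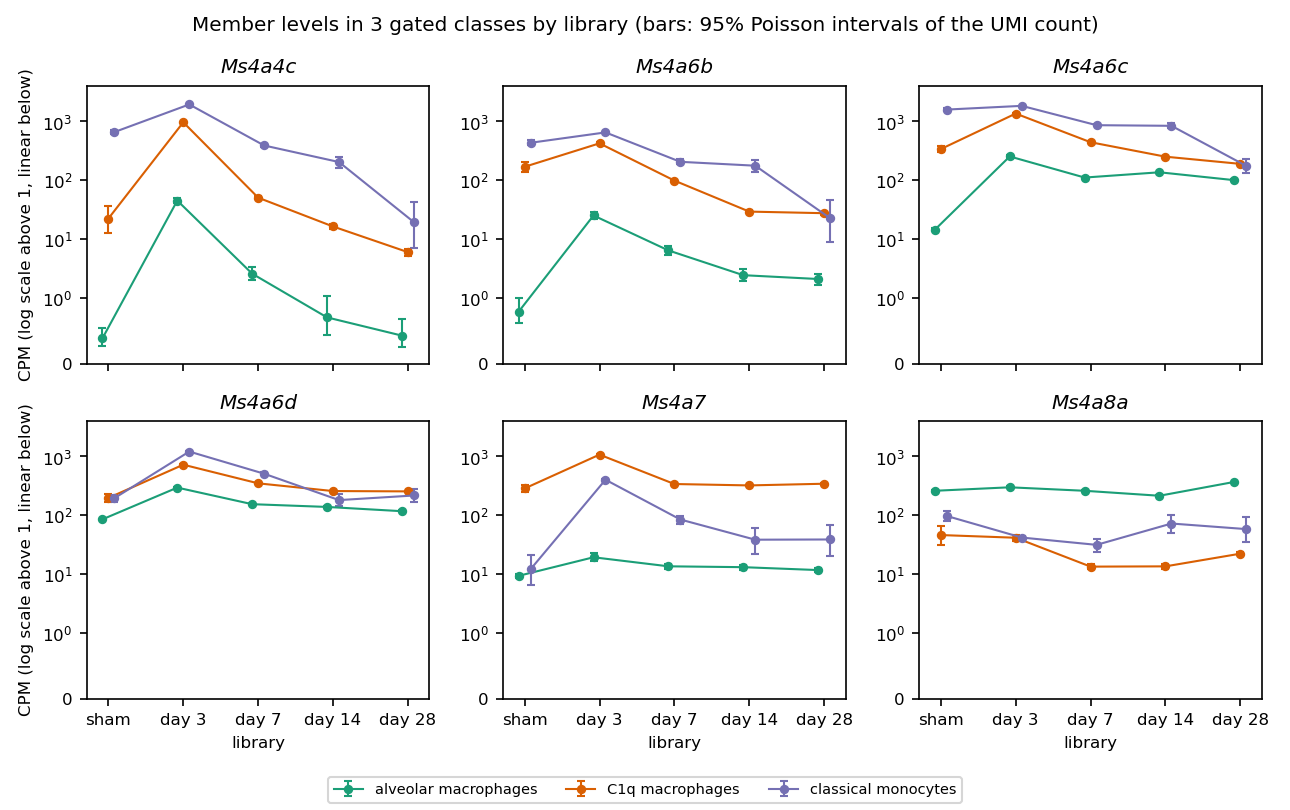
Level of 6 members in alveolar macrophages, C1q macrophages and classical monocytes by library, in CPM on an axis that is logarithmic above 1 and linear below. Points are single libraries, bars are 95% Poisson intervals of the UMI count, and lines join the libraries in order of time. *Ms4a4c*, *Ms4a6b*, *Ms4a6c*, *Ms4a6d* and *Ms4a7* are highest on day 3 in all 3 classes, and *Ms4a8a* in none.

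The day 3 maximum of *Ms4a4c* was not limited to these 3 classes. B cells had 228 in the sham library, 374 on day 3, 71.5 on day 7, 50.7 on day 14 and 79.5 on day 28, in CPM. T cells had 18.7 in the sham library, 228 on day 3, 57.0 on day 7, 17.4 on day 14 and 11.9 on day 28. Type 1 conventional dendritic cells had 5.77 in the sham library, 423 on day 3, 29.8 on day 7, 27.2 on day 14 and 0.906 on day 28. In mature dendritic cells, which carry antigen to lymph nodes, *Ms4a4c* had 0 UMIs in the sham library and 400.1 CPM on day 3, at least 93.2-fold higher than 3 UMIs would give in the sham library. Day 3 was the highest library in each of these classes. Neutrophils had 1.27 in the sham library, 39.4 on day 3, 28.0 on day 7, 0.858 on day 14 and 1.86 on day 28. At 2000 UMIs per cell, the share of T cells with an *Ms4a4c* UMI was 2.96% in the sham library, 29.9% on day 3, 8.33% on day 7, 2.73% on day 14 and 1.63% on day 28, and with all UMIs 3.67 to 59.0%.

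The balance of *Ms4a4c* with other monocyte members differed between classes on day 3. Of the UMIs of *Ms4a4c* and *Ms4a6c* together, *Ms4a4c* made up 51.4% in classical monocytes (95% interval 51.0 to 51.8), 91.1% in B cells (89.7 to 92.4), 89.4% in T cells (88.1 to 90.5), 73.2% in mature dendritic cells (70.7 to 75.6) and 50.8% in neutrophils (43.6 to 57.9). Type 1 conventional dendritic cells had 58.8% (54.4 to 63.0), plasmacytoid dendritic cells 55.5% (51.5 to 59.3) and alveolar macrophages 15.1% (13.8 to 16.5). Of the UMIs of *Ms4a4c* and *Ms4a6d* together, *Ms4a4c* made up 61.6% (61.1 to 62.0) in classical monocytes, 92.5% (89.4 to 94.9) in plasmacytoid dendritic cells and 57.5% (49.8 to 64.9) in neutrophils. In neutrophils both shares overlapped with those of classical monocytes. The intervals cover counting error only, and the part of free RNA in the levels of *Ms4a4c* was not tested. Monocyte and neutrophil genes (*Lyz2*, *S100a8*, *S100a9*, *Plac8* and *Ly6c2*) summed to 1133 to 2610.3 CPM in T cells, against 15538 to 40079.7 in classical monocytes.

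The reporter was also used to divide each class into cells with 0 RFP UMIs and cells with 3 or more. In alveolar macrophages without RFP, *Ms4a6c* stood at 17.2, 277, 114, 126 and 122 CPM from sham to day 28. In those with 3 or more RFP UMIs it stood at 14.2, 228, 129, 133 and 86.9. The second group was higher on days 7 and 14 and lower in the other 3 libraries, and the higher *Ms4a6c* after bleomycin was present in both. *Ms4a8a* of alveolar macrophages stood at 256, 328, 275, 213 and 418 without RFP and at 265, 266, 226, 209 and 305 with it, lower with RFP in all 4 bleomycin libraries. In C1q macrophages *Ms4a4c* stood at 641, 66.4, 21.6 and 9.77 CPM without RFP on days 3, 7, 14 and 28, and at 1092, 43.4, 15.2 and 3.65 with it, so that cells with RFP were higher on day 3 and lower on the other 3 days. In classical monocytes of day 3 *Ms4a4c* was 2125 CPM without RFP and 1889.7 with it. The gap was wider on day 7, with 582 CPM in 89 cells without RFP and 117 in 46 cells with 3 or more RFP UMIs. The median depth of these day 7 cells was 7408 UMIs without RFP and 13283.5 with it. RFP counts depend on the depth of a cell, cells without RFP are not thereby unlabelled, and no test was made. Cells with 3 or more RFP UMIs are not thereby labelled either, and RFP was also found in classes outside this lineage. They made up 27.8% of the alveolar macrophages of the sham library. On day 14 the groups of alveolar macrophages had 82 cells without RFP and 760 with 3 or more RFP UMIs.

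As a description of what each member resembled, its log2(CPM + 10) was correlated with that of 8848 genes over the 72 sums of class and library, which share libraries and depth. Among the 3 genes nearest to *Ms4a1* were *Pax5* (Pearson's r = 0.985, a gate marker) and *Pou2af1* (0.982), which encode a transcription factor and a coactivator of B cells. *Ms4a4b* was nearest to *Sh2d1a* (0.947), *Lck* (0.935, a gate marker) and *Nkg7* (0.933), genes of T and NK cell signalling and killing. *Ms4a8a* was nearest to *Chil3* (0.870), *Klhdc4* (0.858) and *Abcg1* (0.857), of which *Chil3* encodes a chitinase-like protein of alveolar macrophages and *Abcg1* a cholesterol transporter. *Ms4a7* was nearest to *C3ar1* (0.883), a complement receptor gene, and *Syngr1* (0.844). *Ms4a6d* was nearest to the Fc receptor gene *Fcgr1* (0.915), *F10* (0.858) and *Ctss* (0.842).

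*Ms4a6c* was nearest to *Ptpro* (0.855), *Ms4a6d* (0.836) and the Fc receptor gene *Fcgr2b* (0.832). *Ms4a4c* was nearest to *Pyhin1* (0.764), *Ifi44l* (0.736) and *Ms4a6c* (0.725). *Ms4a6b* was nearest to *Fam26f* (0.765), *Gm4955* (0.756) and *Ms4a4c* (0.722). *Pyhin1* and *Ifi44l* are known as interferon-induced genes. *Ms4a6c* was thus among the nearest genes of *Ms4a4c*, and *Ms4a4c* among those of *Ms4a6b*. *Ms4a3* and *Ms4a4a* did not reach the 50 CPM asked for in any sum.

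The other Ms4a genes with a row in the feature list were *Ms4a2*, *Ms4a4d*, *Ms4a5*, *Ms4a10*, *Ms4a12*, *Ms4a13*, *Ms4a14*, *Ms4a15* and *Ms4a18*, and the related *Tmem176a* and *Tmem176b* on chromosome 6 were added to them. *Ms4a12* and *Ms4a13* had 0 UMIs, and *Ms4a5*, *Ms4a10*, *Ms4a15* and *Ms4a18* had 1, 5, 29 and 1 before doublet removal. In fibroblasts *Ms4a4d* stood at 174 in the sham library, 213 on day 3, 93.7 on day 7, 101 on day 14 and 99.7 on day 28, in CPM. Of these 11 genes, 4 could be tested, namely *Ms4a4d*, *Ms4a14*, *Tmem176a* and *Tmem176b*. All 4 were called higher against alveolar macrophages in both classical monocytes and C1q macrophages, where 12.7% and 15.8% of all genes tested were higher. Neutrophils against classical monocytes had 2 lower and 0 higher (20.7% and 21.8% of all genes). Type 2 against type 1 conventional dendritic cells had 2 higher and 0 lower (3.14% and 4.28%). Against T cells, B cells had 3 lower and 0 higher (11.6% and 8.32%), and NK cells 2 lower and 0 higher (5.88% and 4.47%). C1q macrophages against classical monocytes had 1 higher and 0 lower (3.34% and 2.43%). Nonclassical against classical monocytes had 0 called (6.18% higher and 8.29% lower). *Ms4a14* was higher in C1q macrophages than in alveolar macrophages by 5.34 ± 0.43 (SE; edgeR adjusted p = 9.6e-15) on the log2 scale, and higher than in classical monocytes by 2.29 ± 0.50 (SE; edgeR adjusted p = 0.0019). *Ms4a2*, the beta chain of the high-affinity IgE receptor, had 178 UMIs in 44 cells, and in the 17 day 14 cells gated as basophils or mast cells it reached 923 CPM. *Tmem176b* was higher in C1q macrophages than in alveolar macrophages by 6.17 ± 0.61 (SE; edgeR adjusted p = 1.0e-12) and higher in type 2 than in type 1 conventional dendritic cells by 5.66 ± 0.63 (SE; edgeR adjusted p = 6.1e-10). It was lower in CD8 than in CD4 T cells, at -2.23 ± 0.52 (SE; edgeR adjusted p = 0.0063), where no member was called. In that comparison 2 of these 4 genes were lower and 0 higher, against 0.841% and 0.774% of all genes tested.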

How the data were processed

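Lung cells of 5 groups of mice (PBS-treated and day 3, 7, 14 and 28 after bleomycin), 1 library each, were profiled by droplet scRNA-seq. The authors deposited raw UMI counts per gene and barcode, made with Cell Ranger 6.0.0 against mm10 with 1 added feature, RFP, per the labels and the file contents. The 5 libraries hold 89769386 to 167506186 UMIs. The filters on barcodes were 300 to 8000 genes, 800 to 60000 UMIs and less than 15% of UMIs from mitochondrial genes, and predicted doublets, the 7.17% to 10.15% of barcodes per library with the highest Scrublet scores (scanpy 1.11.5), were removed. A cell was given the class of its highest marker score where this was at least 0.25, 3 markers were detected and the second score was at most 0.7 of the first, and 2891 of the gated cells lay near a limit. Counts were summed per class and library from 20 cells on, and classes were compared with edgeR 4.0.16 (quasi-likelihood test, TMM, library as a block, Benjamini-Hochberg adjustment). When counts of 15082 genes were simulated for classical monocytes against alveolar macrophages with 200 genes changed, 20% of 2-fold and 94% of 4-fold changes were called, with 0% false calls. The simulated counts had a fixed dispersion, no library effect and, apart from the changed genes, the same gene means in every class. The changed genes were drawn from those above a minimum count. These rates therefore do not give the error rates of the tests on the real sums. Libraries are separate samples but differ in time point. In the main fits the spread was estimated over all classes together. A p-value there weighs a class difference against that shared spread, and not against the consistency of the 2 classes alone.

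Levels and ratios carry exact Poisson or binomial intervals, and shares exact binomial intervals (Clopper-Pearson), at 95% and for counting error only. A count of 0 was read as up to 3. For shares, cells were reduced to 2000 UMIs, leaving out shallower cells. All 10 members were named, with the other Ms4a genes, *Tmem176a*, *Tmem176b*, RFP and the 3 genes most correlated with each member (Pearson, genes with 50 CPM in at least 1 sum). Some of these genes are not reported here. The members, the gene lists and the tests were chosen with earlier results of these data known. Alternatives were DESeq2 1.42.0, other scaling, filters and gates, fits without the block or on 2 classes, and leaving out each library. Coordinates are from GENCODE vM21 (GRCm38) and promoters from RefSeq (GRCm38.p6).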

Additional observations from a re-analysis of the deposited data

Results flagged for a closer look

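The 8121 cells that passed no gate enter no comparison above, and several members were higher in them after bleomycin than in the sham library. On day 3 *Ms4a7* was 58.5 times its sham level in these cells, *Ms4a4c* 30.2 times, *Ms4a6b* 11.02 times, *Ms4a6d* 9.09 times, *Ms4a6c* 7.63 times and *Ms4a4b* 3.45 times. *Ms4a7* was 5.02 times its sham level on day 7, 3.03 times on day 14 and 3.06 times on day 28. *Ms4a1* was 3.39 times its sham level on day 7. The sham library had 614 such cells with a median of 2315.5 UMIs, and day 3 had 1511 with a median of 11828. The later libraries had 1462 to 2314, with medians of 13066 to 16534. These ratios come from 1 library per time point, were not tested, and the mix of cells that passed no gate was not compared between days.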

How the results depend on the processing

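Members were called 37 times over the 9 comparisons, and 24 of these calls passed the threshold under every alternative run. Of 514 values under alternatives 483 kept the call, 31 lost it and 0 changed direction. Of 13 calls lost at least once, 11 were lost without the library block and 7 under another alternative. Without the library block C1q macrophages against classical monocytes gave 1 call, type 2 against type 1 conventional dendritic cells 0 and NK cells against T cells 0, and B cells against T cells kept 3 of 4. Over all genes these comparisons gave 429, 677, 1073 and 2225 calls without the block, against 870, 1119, 1561 and 3009 in the main fit. With a fit on the 2 classes only, the dendritic cells gave 5 calls, NK against T cells 2 and CD8 against CD4 T cells 3. Over all genes such fits gave 1219, 2264 and 698 calls, against 1119, 1561 and 240 in the main fits. C1q macrophages against classical monocytes gave 7 calls with the stricter gate and 5 when all libraries were held to the UMI minimum of day 7, an alternative chosen after seeing the data. Over all genes this comparison gave 1683 and 1077 calls there, against 870 in the main fit. With 1 library left out, its calls over all genes ranged from 326 without day 14 to 790 without day 7. With 1 library left out, calls ranged from 8 to 9 for classical monocytes and 7 to 8 for C1q macrophages against alveolar macrophages, from 2 to 4 for C1q macrophages and 2 to 3 for nonclassical monocytes against classical monocytes, from 6 to 7 for neutrophils, from 1 to 3 for the dendritic cells, from 4 to 5 for B against T cells, from 1 to 1 for NK cells and from 0 to 0 for CD8 T cells. The causes were not tested.

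Pairs past 2-fold of sham numbered 5 in alveolar macrophages and 8 in C1q macrophages when 50 CPM were asked for, which counts fewer pairs, and 7 in classical monocytes with the stricter gate, which left 2 bleomycin days with enough cells. With 10 CPM in both libraries, chosen after seeing the data, they were 5, 11 and 15 in alveolar macrophages, C1q macrophages and classical monocytes. With 1 bleomycin library left out, also chosen after seeing the data, they ranged from 3 to 8, 7 to 11 and 13 to 14, and day 3 gave the lowest counts in both macrophage classes. Mean shares of positive cells over libraries moved with the depth. With all UMIs and with 4000 UMIs they were 89.1% and 92.3% for *Ms4a1* in B cells, 4.70% and 3.75% for *Ms4a4a* in nonclassical monocytes, 98.2% and 97.3% for *Ms4a4b* in CD8 T cells, 89.5% and 86.9% for *Ms4a6b* in CD4 T cells, and 92.8% and 62.9% for *Ms4a8a* in alveolar macrophages. With all UMIs they were 81.0% for *Ms4a6d* in classical monocytes and 71.9% for *Ms4a7* in C1q macrophages.

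Each time point is 1 library, so a difference between days cannot be told apart from one between libraries. Day 7 lacks shallow cells, day 28 has 20 classical monocytes and sham has 54 C1q macrophages. A change within cells and a change in which cells passed the gate cannot be told apart.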
